A study of Mus musculus with 18 samples.

Results

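The insulin-like growth factor (IGF) system is described here through 9 mouse genes: the ligands Igf1 and Igf2, the receptors Igf1r and Igf2r, and the binding proteins Igfbp2, Igfbp3, Igfbp4, Igfbp5 and Igfbp6. A probe set, the group of short probes that gives a single value on the array, was taken when its annotation named exactly 1 gene symbol and that symbol was among these 9. This gave 25 probe sets, out of 45037 that were not array controls, and 9 genes out of the 18193 that had a probe set with a single symbol. All 25 were analysed, with no filter on low values.

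RNA pulled down with a tagged protein that a transgene was built to express in orexin neurons (IP, 9 arrays) was compared with RNA of the whole brain (WB, 9 arrays). The markers of orexin neurons did not rise together in the IP samples, and whether these samples hold mainly RNA of those neurons was not tested. Hcrt (orexin) itself did not differ past the test (0.21, IP minus WB, log2, limma adjusted p = 0.568). Of 5 orexin neuron markers 1 was higher and 1 lower, beside 21.7% higher and 21.7% lower among all genes on their brightest probe set. Astrocyte markers were higher in 3 of 5 and lower in 1. They ran from Gfap, 6.52-fold higher (limma adjusted p = 1.48e-11), to Aldh1l1, 5.49-fold lower (limma adjusted p = 6.94e-07). The samples are called IP throughout. Every animal, in the IP and in the WB group alike, came from a C57BL/6J X DBA/2J background and carried a BAC transgene in which the coding sequence of orexin was replaced by a flag-tagged rat poly(A)-binding protein (PABP) followed by an IRES and eGFP. The mice were 11 and 14 weeks old, and the labels do not tie an age to an array. Brains were perfused with formaldehyde so that messages were cross-linked to the tagged protein. The lysate was then incubated with anti-flag beads. Only cells that use the orexin regulatory sequence of the transgene should carry the tag, and how many transgenic lines were used is not stated in the labels. The labels list polyA RNA for the IP and total RNA for the WB samples, and 5 ng of either entered NuGEN WT-Ovation Pico amplification. The comparison asks which messages were higher or lower in the pulled-down RNA than in the brain around it. Since no label ties an array to a separate animal, all p-values refer to the spread among these samples, and part of that may be technical.

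IGF1 and IGF2 are small secreted hormones related to insulin that support growth and survival, and in the brain they are made by neurons, glia and cells of the meninges and vessels. Both signal through the IGF1 receptor, a tyrosine kinase that acts through insulin receptor substrates, PI3 kinase and AKT. The IGF2 receptor, also the cation-independent mannose 6-phosphate receptor, carries IGF2 to lysosomes for breakdown. The IGF binding proteins hold the ligands outside cells and extend or block their action, and IGFBP3 has been described in orexin neurons.

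With the arrays scaled as deposited, most of the system was lower in the IP than in the WB samples, or did not differ past the test. Nothing in it was then higher on the brightest probe set of a gene. Under quantile normalization and median centring the brightest probe set of Igf2r was called higher, at 0.62 and 0.79. Those of Igf1r and Igfbp5 stayed lower under both. Of the 25 probe sets, 14 (56.0%) were lower, 1 (4.00%) was higher and 10 did not pass an adjusted p of 0.05 (limma, Benjamini-Hochberg over all 45037 probe sets). Of all 45037 probe sets, 30.8% were lower and 14.2% were higher, 45.0% in either direction. The median difference, IP minus WB on log2(intensity + 16), was -0.9 over the 25 and -0.23 over all. With each gene read on its brightest probe set, 6 of the 9 genes were lower (Igf1, Igf1r, Igfbp2, Igfbp3, Igfbp4 and Igfbp5), none was higher and Igf2, Igf2r and Igfbp6 did not pass, beside 21.7% lower and 21.7% higher among all 18193 genes (43.4% in either direction). At an unadjusted limma p under 0.05 the count of higher genes was also 0. Averaged over the probe sets of each gene, 7 of the 9 were lower, all but Igf1 and Igfbp6, and 0 higher (29.0% and 12.5% of all genes, 41.6% in either direction). The probe sets of a gene share their target, and 6 of the 25 read Igfbp4, so the 25 are not independent.

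**Figure D1:**
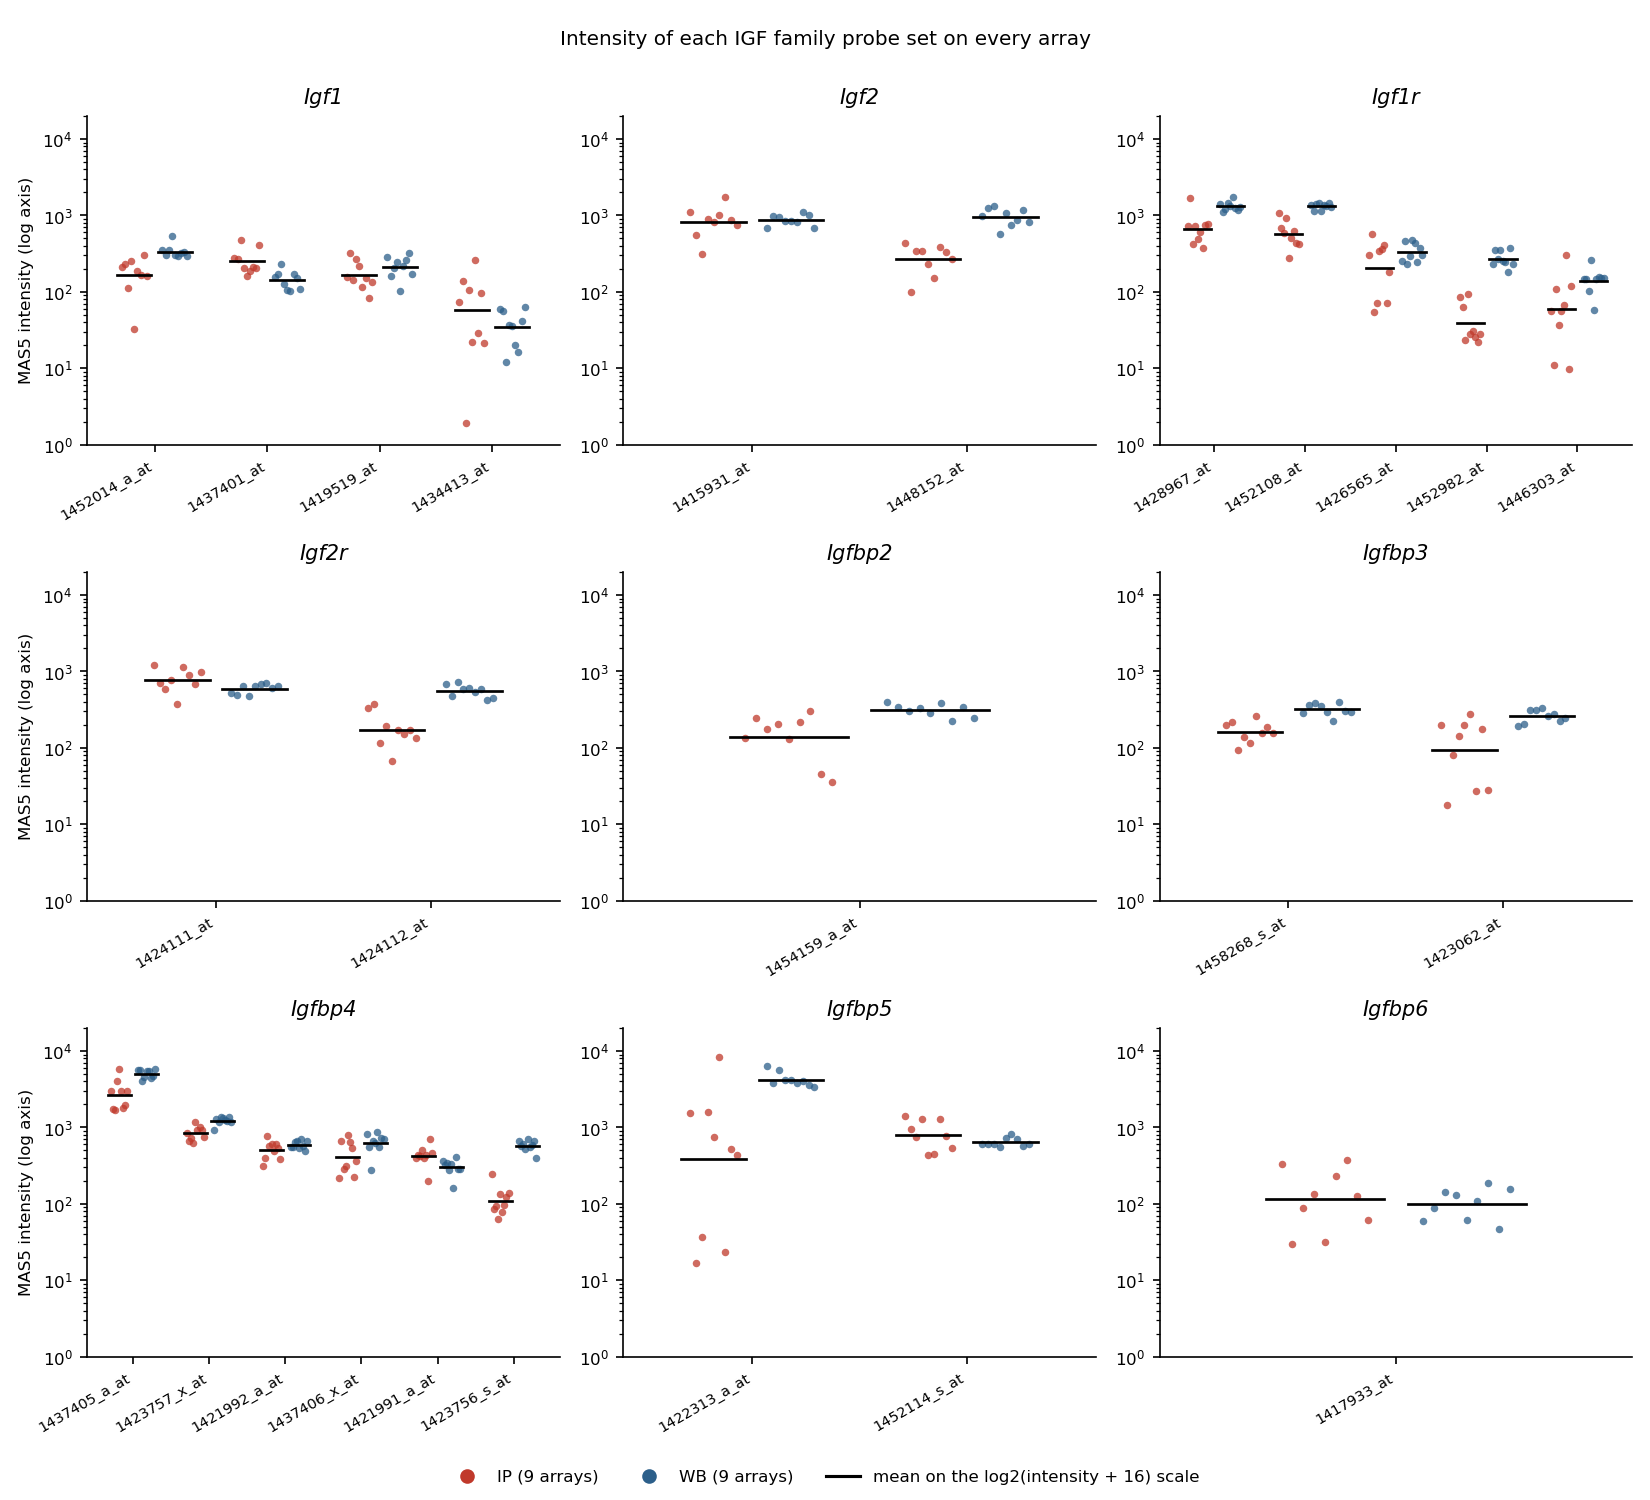
Deposited intensity (log axis) of the 25 probe sets on each of the 9 IP and 9 WB arrays, with 1 panel a gene, 1 point an array and a bar at the mean of each group, taken on log2(intensity + 16). The IP points of Igfbp5 1422313_a_at run from 16.7 to 8405 while the WB points lie between 3346 and 6387.

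How far the values depend on the scaling of the arrays decides how a single call can be read. The deposited arrays share a trimmed mean of 499.8 to 499.9. The median log2 value of a probe set was nonetheless 7.61 ± 0.12 (SD, n = 9) on the IP arrays and 8.04 ± 0.10 on the WB arrays, and the spiked hybridization controls read 14.23 ± 0.53 and 13.29 ± 0.18. Under quantile normalization the median difference of all probe sets shifted by 0.34 to 0.11, under median centring by 0.42 to 0.20, and under scaling on the hybridization controls by -0.8 to -1.03. Of the 25 probe sets, quantile normalization gave 4 higher and 9 lower (all probe sets: 24.1% and 22.0%), median centring 4 and 7 (28.4% and 18.5%), and the hybridization controls 0 and 19 (3.24% and 62.4%). Called in the same direction under all 4 scalings were 7 probe sets of 5 genes, beside 21.2% of all probe sets (8123 lower and 1445 higher). All 7 were lower: Igf2 1448152_at, Igf1r 1428967_at, 1452108_at and 1452982_at, Igf2r 1424112_at, Igfbp4 1423756_s_at and Igfbp5 1422313_a_at.

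**Figure D2:**
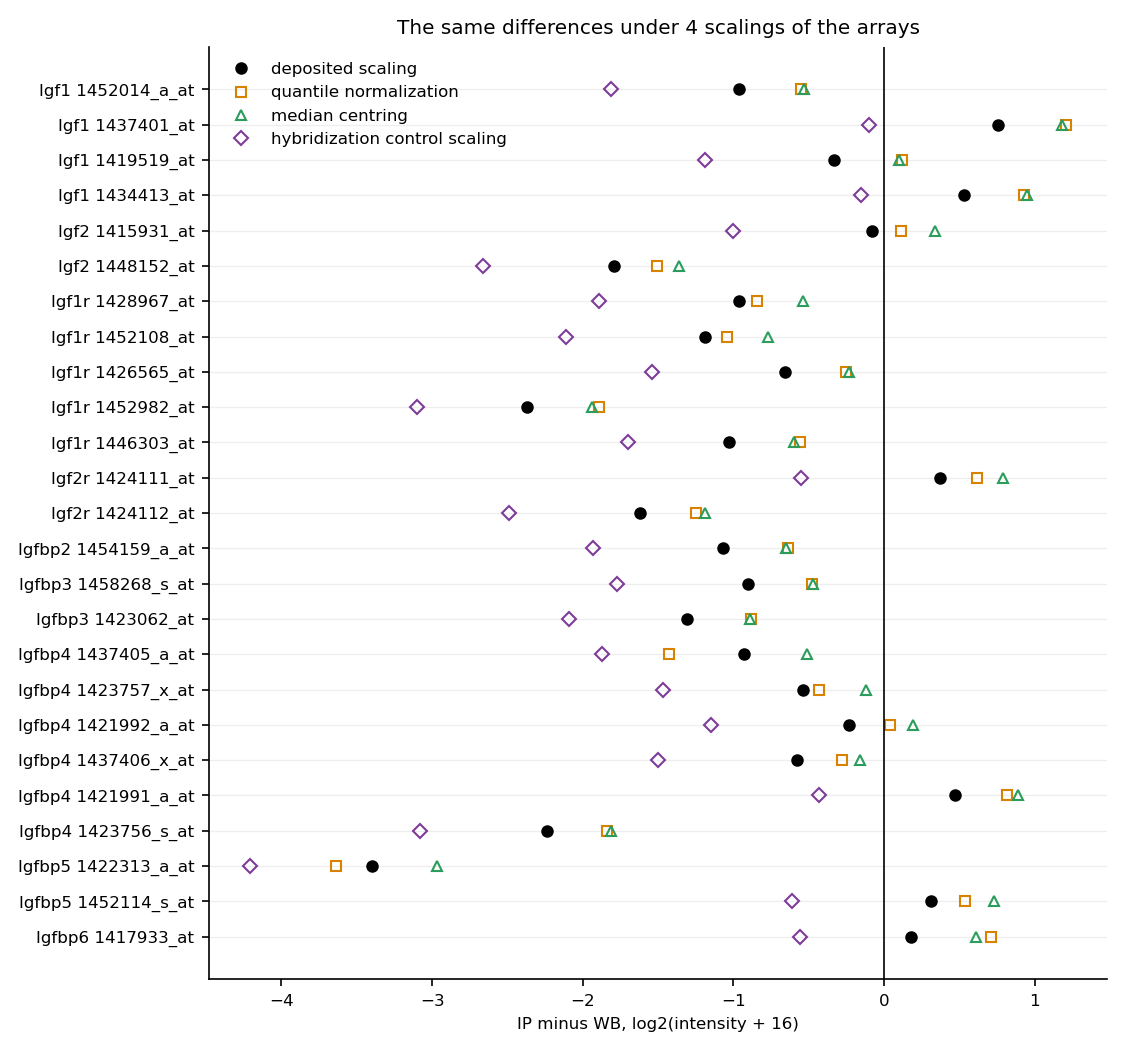
Difference IP minus WB (log2) of each of the 25 probe sets under the deposited scaling, quantile normalization, median centring and scaling on the hybridization controls. Each symbol is 1 scaling; Igf1r 1452982_at and Igfbp4 1423756_s_at lie left of 0 under all 4, whereas Igf1 1437401_at lies at 0.76 as deposited and at -0.10 on the hybridization controls.

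Of the control genes read at both ends of the message, Gapdh differed between the groups and Actb did not pass the test. The Gapdh control probe sets at the 3′ end exceeded those at the 5′ end by 4.19 ± 0.69 (log2, n = 9) in the IP and by 1.56 ± 0.15 in the WB samples, with no overlap (exact permutation p = 4.11e-05, two-sided, the smallest that 48620 divisions of the arrays can give; 5.48e-05 adjusted over 4 array measures). For Actb the gap was -0.36 ± 0.44 and -0.17 ± 0.08 (exact permutation p = 0.242). A gap like that of Gapdh bears on genes read by several probe sets, because each probe set covers its own stretch of the transcript. Its part in the differences below was not tested.

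Among the ligands, the 4 probe sets of Igf1, the growth hormone-dependent hormone that neurons, microglia and other brain cells make, disagreed. The brightest, 1452014_a_at, read 33.2, 190 and 301 in the IP samples (lowest, median, highest) and 292, 319 and 532 in the WB samples. It was lower in the IP, by 0.96 on the log2 scale (SE 0.28, 95% interval -1.54 to -0.38, 1.94-fold, limma adjusted p = 0.00747). All IP arrays but replicate 8 lay below every WB array. The call ended with quantile normalization, at -0.55 (adjusted p = 0.091), and with median centring, at -0.53 (adjusted p = 0.105). Probe set 1437401_at went the other way, the only member probe set called higher: 163, 213 and 472 in the IP and 104, 151 and 229 in the WB samples. Its difference was 0.76 (SE 0.24, 95% interval 0.26 to 1.27, 1.69-fold, adjusted p = 0.0134). In the IP 4 arrays lay above every WB array, and on the hybridization controls the difference was -0.10 (adjusted p = 0.804). The remaining probe sets did not pass. For 1419519_at the IP samples read 84.0, 153 and 322 and the WB samples 104, 219 and 325 (-0.33, SE 0.27, adjusted p = 0.341). For 1434413_at they read 1.96, 73.0 and 262 and 12.2, 36.9 and 63.2 (0.53, SE 0.41, adjusted p = 0.313). This last probe set was the only one of the 25 whose mean was no higher, in either group, than that of the brightest probe set against the bacterial trp gene, a control that no sample should contain (6.31 in the IP and 5.92 in the WB samples, log2). Averaged over its 4 probe sets, Igf1 differed by 0.00 (SE 0.19, adjusted p = 0.997).

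Igf2, the imprinted ligand known in brain from the meninges, choroid plexus and vessels, was measured by 2 probe sets that parted. The brighter, 1415931_at, read 317, 865 and 1762 in the IP and 677, 845 and 1108 in the WB samples. Of the IP arrays 2 lay below every WB array, 2 above, and the difference was -0.08 (SE 0.22, 95% interval -0.54 to 0.38, adjusted p = 0.800). On 1448152_at the IP samples read 99.8, 331 and 434 and the WB samples 581, 992 and 1345. Every IP array was below every WB array, a fall of 3.45-fold (-1.79, SE 0.24, 95% interval -2.28 to -1.29, adjusted p = 1.28e-06). The markers of meninges and fibroblasts, cells that express Igf2, were lower in 3 of 5 genes and higher in none; their summed intensity was 1131 to 2021 in the IP and 1665 to 2231 in the WB samples, and of the 5 only Lum was at the level of the trp controls, in the IP. The choroid plexus markers, 1 of 5 higher and 0 lower, summed to 20829 to 52026 in the IP and 15781 to 21116 in the WB samples. Ttr alone had a median of 28619 in the IP and 18339 in the WB samples, beside 29666 and 19322 for the sum. The markers of endothelial and mural cells were higher in 1 of 5 and lower in 3 (2206 to 3355 against 2676 to 3588), with none at the level of the trp controls. Among all genes on their brightest probe set 21.7% were higher and 21.7% lower. The part of these cell types in the Igf2 values was not tested. A lower IP value means less signal in the pulled-down RNA than in the whole brain RNA. Which cells account for it cannot be told from these samples.

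The receptors were lower on 5 of 7 probe sets and higher on none, with a median difference of -1.03. Of all probe sets 30.8% were lower and 14.2% higher, with a median of -0.23. Igf1r alone accounts for 5 of the 7. Igf1r, the tyrosine kinase that answers both ligands, was lower on 4 of its 5 probe sets. On the brightest, 1428967_at, the IP samples read 379, 729 and 1680 and the WB samples 1105, 1292 and 1741. Replicate 2 was the only IP array inside the WB range. The difference was -0.96 (SE 0.21, 95% interval -1.38 to -0.54, 1.95-fold, adjusted p = 0.000447). Probe set 1452108_at showed no overlap, with 278, 583 and 1062 in the IP and 1133, 1362 and 1468 in the WB samples. It fell 2.28-fold (-1.19, SE 0.20, adjusted p = 2e-05). The deepest fall among the receptors was on 1452982_at, which read 21.9, 28.6 and 94.2 in the IP and 184, 255 and 379 in the WB samples. All 9 IP arrays were below all WB arrays, by 5.15-fold (-2.37, SE 0.28, 95% interval -2.94 to -1.79, adjusted p = 1.78e-07). Its IP mean lay under that of the trp controls, so this fold rests on the added 16. Probe set 1446303_at, also at that level in the IP, read 9.92, 56.3 and 302 against 57.5, 149 and 260. It was called lower (-1.03, SE 0.40, adjusted p = 0.0371), but kept the call in only 8 of 18 fits that left out 1 array each, with differences from -1.28 to -0.83. Quantile normalization (-0.56) and median centring (-0.60) ended it too. Only 1426565_at did not pass, with 55.1, 308 and 577 in the IP and 230, 304 and 472 in the WB samples (-0.66, SE 0.37, adjusted p = 0.149). Averaged over its probe sets, Igf1r was lower by 1.24 on the log2 scale (adjusted p = 1.97e-06).

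Igf2r, the scavenging receptor for IGF2, was split like its ligand. On the brighter 1424111_at the IP samples read 370, 785 and 1220 and the WB samples 473, 640 and 702. Of the IP arrays 6 lay above every WB array and replicate 5 below them all, and the difference of 0.37 did not pass (SE 0.19, 95% interval -0.02 to 0.76, adjusted p = 0.121). Leaving out IP replicate 5 gave 0.50 and a call of higher (adjusted p = 0.0153), as did quantile normalization at 0.62 (adjusted p = 0.005) and median centring at 0.79 (adjusted p = 0.001). It had the opposite sign on the hybridization controls (-0.55). On 1424112_at the IP samples read 67.4, 171 and 374 and the WB samples 427, 584 and 723, without overlap. That probe set was 3.07-fold lower (-1.62, SE 0.25, 95% interval -2.13 to -1.11, adjusted p = 8.65e-06).

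The binding proteins had 7 of 12 probe sets lower and 0 higher, with a median difference of -0.74. Over all probe sets the shares were 30.8% and 14.2%, and the median was -0.23. Igfbp4 alone accounts for 6 of the 12. Igfbp2, a carrier made by astrocytes and choroid plexus that favours IGF2, has a single probe set. It read 35.4, 176 and 304 in the IP and 225, 332 and 403 in the WB samples. Of the IP arrays 7 lay below every WB array, and replicates 8 and 9 were the lowest. The difference was -1.07 (SE 0.31, 95% interval -1.72 to -0.43, 2.1-fold, adjusted p = 0.00673). It no longer passed when the arrays were quantile-normalized (-0.64, adjusted p = 0.084) or centred on their medians (-0.65, adjusted p = 0.088).

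Igfbp3, the main carrier of IGFs in blood and the member described in orexin neurons, was lower on both of its probe sets. On the brighter 1458268_s_at the IP samples read 93.9, 159 and 259 and the WB samples 225, 308 and 399. The IP values lay below every WB value on 8 of 9 arrays, a 1.86-fold fall (-0.90, SE 0.22, 95% interval -1.34 to -0.45, adjusted p = 0.00141). On 1423062_at the IP arrays ranged widely, from 17.99 through a median of 142 to 279, and the WB arrays held to 193, 264 and 329. Replicates 2, 7 and 9 of the IP were at 17.99, 27.29 and 28.05, while replicate 6 exceeded the WB median. The difference was -1.31 (SE 0.38, 2.48-fold, adjusted p = 0.0065). Both calls ended with quantile normalization, at -0.48 (adjusted p = 0.06) for 1458268_s_at and -0.88 (adjusted p = 0.064) for 1423062_at. They ended with median centring too, at -0.47 (adjusted p = 0.068) and -0.89 (adjusted p = 0.066). Hcrt (orexin), the gene whose regulatory sequence drove the tag, read 73.8, 308 and 491 in the IP samples. In the WB samples it read 156, 248 and 388, and its difference had an SE of 0.28. That difference was 0.61 with quantile normalization (limma adjusted p = 0.0664) and 0.64 with median centring (limma adjusted p = 0.0617). On the hybridization controls it was -0.64 (limma adjusted p = 0.111). Of the orexin neuron markers Nptx2 was the higher one and Pdyn the lower, with Pdyn at the level of the trp controls in the IP.

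Igfbp4, a carrier that mainly restrains IGF action and is cut by the protease PAPP-A, was covered by 6 probe sets, of which 3 were lower. The brightest, 1437405_a_at, read 1677, 2958 and 5839 in the IP and 4113, 5441 and 5776 in the WB samples. Replicate 5 of the IP was above all WB arrays and the other 8 were below them. The difference was -0.93 (SE 0.19, 1.91-fold, adjusted p = 0.00033), and -0.51 with median centring (adjusted p = 0.054). A fall without overlap was seen on 1423756_s_at, with 64.5, 97.7 and 248 against 394, 585 and 698. It was 4.71-fold lower (-2.24, SE 0.22, 95% interval -2.70 to -1.77, adjusted p = 1.3e-08), the smallest adjusted p among the 25. Probe set 1423757_x_at read 636, 851 and 1179 against 924, 1249 and 1383 and was lower by 0.54 on the log2 scale (SE 0.14, adjusted p = 0.00278), a call lost with median centring (-0.12, adjusted p = 0.562). The other 3 did not pass. They were 1437406_x_at (-0.58, SE 0.26, adjusted p = 0.0693), 1421992_a_at (-0.23, adjusted p = 0.28) and 1421991_a_at (0.47, SE 0.21, adjusted p = 0.0797). The first read 220, 363 and 796 in the IP and 279, 670 and 875 in the WB samples, and passed without IP replicate 2, 5 or 6 or WB replicate 3. The second read 317, 535 and 782 against 495, 578 and 701, with the WB values inside the IP range. The last read 200, 433 and 716 in the IP and 163, 324 and 408 in the WB samples. It was called higher with quantile normalization (0.82), median centring (0.89) and without IP replicate 7 (0.59, adjusted p = 0.0141), and was -0.43 on the hybridization controls.

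Igfbp5, a carrier that binds matrix and lies next to Igfbp2 in the genome, had the largest fall and the largest spread. On 1422313_a_at the WB arrays read 3346 to 6387, with a median of 4001. The IP replicates 1 to 9 read 1570, 16.7, 37.2, 1608, 753, 8405, 23.4, 526 and 440. Replicates 2, 3 and 7 were thus near the bottom of the scale, whereas replicate 6 was above every WB array and the other 8 were below them all. On log2(intensity + 16) the means were 8.66 ± 2.77 and 12.05 ± 0.30 (SD, n = 9 each), a difference of -3.40 (SE 0.76, 95% interval -4.96 to -1.84, 10.5-fold, adjusted p = 0.000675). Without 1 array at a time it ran from -3.95, without IP replicate 6, to -2.94, without IP replicate 2, and the call held in all 18 fits. The other probe set, 1452114_s_at, read 440, 781 and 1422 against 551, 613 and 828. It did not pass as deposited (0.31, SE 0.22, adjusted p = 0.256), was called higher after quantile normalization at 0.54 (adjusted p = 0.026) and after median centring at 0.73 (adjusted p = 0.006), and was -0.61 on the hybridization controls.

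Igfbp6, which prefers IGF2, has 1 probe set. It read 30.3, 128 and 372 in the IP and 47.4, 109 and 188 in the WB samples. The groups overlapped, with IP arrays at both ends, and the difference was 0.18 (SE 0.40, 95% interval -0.65 to 1.02, adjusted p = 0.741). This interval still allows changes of either sign.

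**Figure D3:**
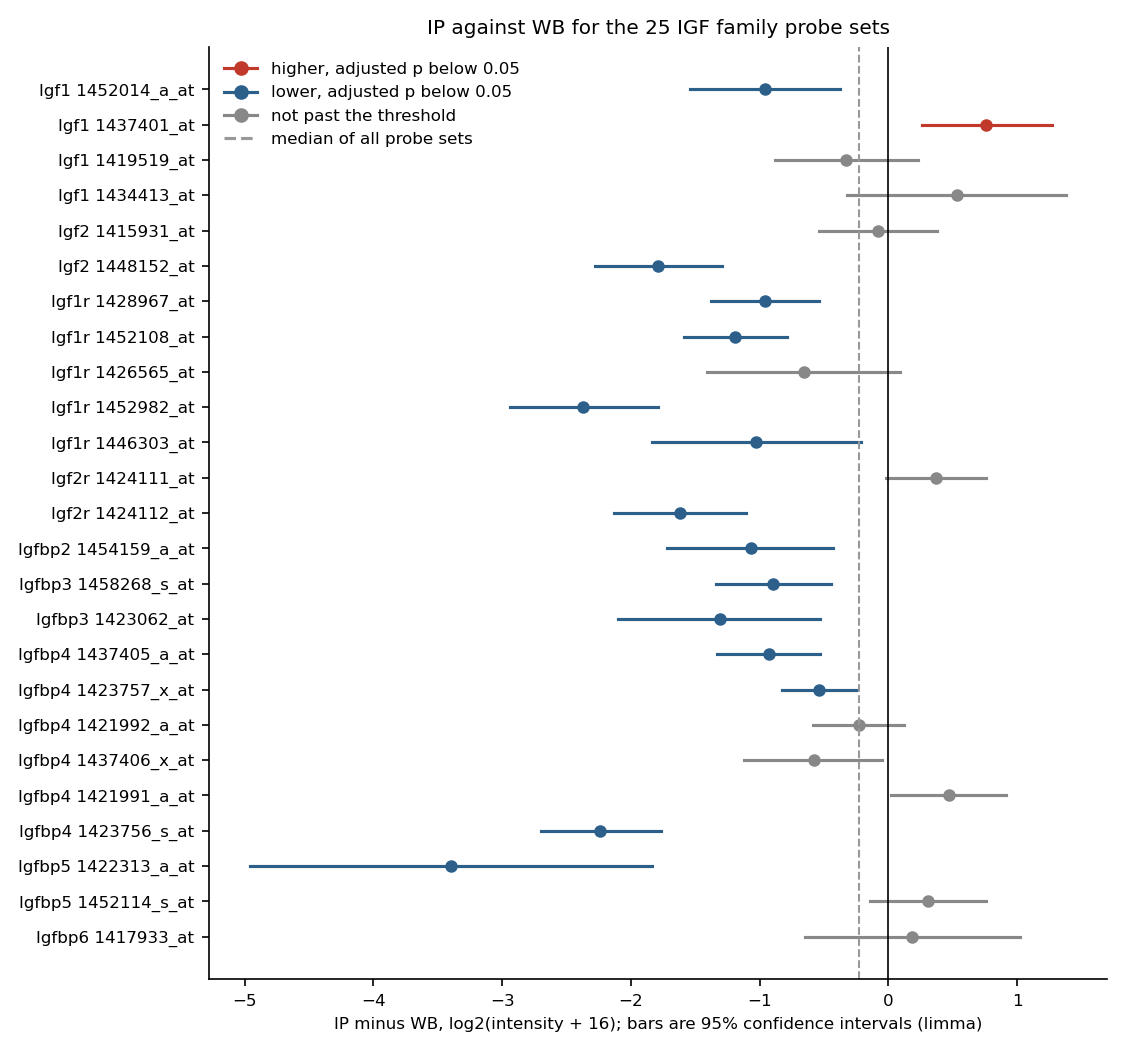
Difference IP minus WB in log2(intensity + 16) of the 25 probe sets with 95% intervals from limma; 14 are called lower, 1 is called higher (Igf1 1437401_at, 0.76) and 10 are not called. Igfbp5 1422313_a_at has the lowest value, -3.40, and the widest interval.

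Whether the probe sets of a gene changed unequally can be tested on their ratio within each array, where a factor common to the array cancels apart from the added 16. The log2 ratio of 2 probe sets of 1 gene differed between IP and WB for 20 of 35 member pairs (57.1%; exact permutation test, two-sided, Benjamini-Hochberg over all 30372 such pairs of the array, of which 48.6% passed). On quantile-normalized values, where no common factor applies, 22 of the 35 passed, 19 of them among the 20 with the same sign, and on the hybridization controls 20, the same pairs with the same sign; 46.7% and 49.2% of all pairs passed there. All 35 come from the 7 genes with more than 1 probe set. For Igf2r the ratio of 1424111_at to 1424112_at was 2.08 ± 0.55 in the IP and 0.10 ± 0.31 in the WB samples, without overlap (adjusted p = 0.00024 by exact permutation). The Igf1 pair called in opposite directions, 1452014_a_at to 1437401_at, stood at -0.57 ± 0.89 and 1.15 ± 0.41, also without overlap (same adjusted p). For Igf2 the ratio of 1415931_at to 1448152_at was 1.57 ± 0.79 and -0.14 ± 0.38, with overlap (adjusted p = 0.000728 by exact permutation). Igfbp5 1422313_a_at to 1452114_s_at was -1.02 ± 3.02 and 2.69 ± 0.38; the IP arrays covered the WB range, from -5.04 to 4.19 against 2.18 to 3.35 (adjusted p = 0.00242 by exact permutation). The pair of Igfbp3 differed by 0.41 and did not pass (adjusted p = 0.438 by exact permutation). Igf1 was the only 1 of the 7 genes with calls in opposite directions, which 22.0% of 9010 such genes had. A lower probe set beside an uncalled one was found in 6 of the 7 (41.6% of the 9010).

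**Figure D4:**
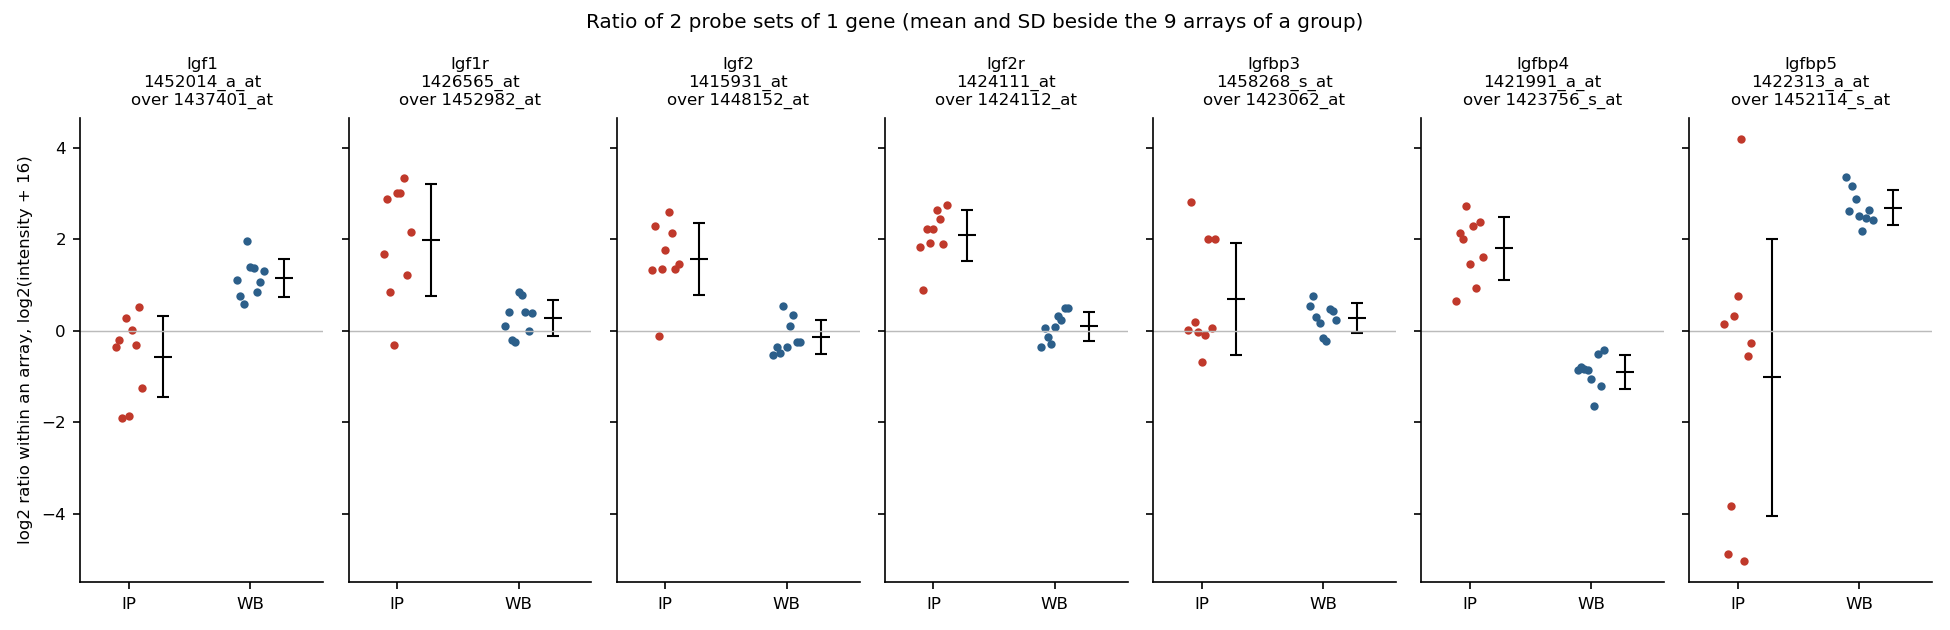
Within-array log2 ratio of 2 probe sets of a gene, 1 panel for each of the 7 genes with more than 1 (the pair whose ratio differs most), 1 point an array, with the mean and SD beside each group of 9. The Igf2r pair stands at 2.08 in the IP and at 0.10 in the WB samples, and the Igfbp5 pair scatters over -5.04 to 4.19 in the IP samples alone.

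Between member genes, the direction of a ratio depended on the probe sets read. Of the 36 gene pairs, 5 had a ratio change of a single sign under every choice of their probe sets and 31 had changes of both signs. Those 5 were Igf1 to Igfbp2, and Igf2, Igf1r, Igfbp2 and Igfbp3 to Igfbp6. Each holds Igfbp2 or Igfbp6, which have 1 probe set, so fewer choices could turn the sign. For Igfbp2 to Igfbp6 there was only 1 choice, so its single sign was fixed in advance. The ratio of Igf1r, the signalling receptor, to Igf2r, the receptor that clears IGF2, changed by -1.33 on the brightest probe sets (p = 0.000288, exact permutation, two-sided, unadjusted) and by 0.66 on the other Igf2r probe set (p = 0.00366, exact permutation). Igf2r to Igfbp3 changed by 1.27 and by -0.72 with the same exchange. Igfbp2 to its genomic neighbour Igfbp5 changed by 2.32 and, on the other Igfbp5 probe set, by -1.38. No direction between the genes is therefore read from these ratios.

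Spread was larger in the IP. All 25 probe sets had a larger SD on log2(intensity + 16) there, as did 87.7% of all probe sets, and the median SD of the 25 was 0.64 in the IP and 0.26 in the WB samples (0.74 and 0.34 over all). Array by array, the median difference of the 25 from their WB means ran from -1.41 in IP replicate 3 to -0.38 in replicate 6, while over all probe sets it ran from -0.36 to -0.10. On each IP array 11 to 16 of the 25 lay below every WB array and 1 to 6 above. The shares over all probe sets were not computed array by array, so these counts are a description only. Without overlap, all IP arrays were below all WB arrays for 5 of the 25 (20.0%, beside 10.3% of all probe sets) and above them for 0 (5.22%).

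Around the members, 42 of 48 listed genes of insulin and IGF signalling and of IGF availability were measured; the other 6 were not analysed here. On their brightest probe sets 12 were higher, 8 lower and 22 did not pass, beside 21.7% higher and 21.7% lower among all genes. The median of the 42 was 0.06, beside 0.0 over all genes. With other scalings the counts higher and lower were 17 and 7 (quantile), 19 and 7 (median centring) and 2 and 21 (hybridization controls). The shares over all genes under these scalings were not computed. Averaged over all probe sets of a gene, 5 were higher and 12 lower, beside 12.5% and 29.0% of all genes. Htra1, a secreted serine protease that cuts IGF binding proteins, rose from 2785 to 4332 in the WB to 10355 to 17796 in the IP samples (4.06-fold, SE 0.12, adjusted p = 2.36e-12); its other probe set was lower, and the mean of both did not pass (0.26, adjusted p = 0.0991). Ghrh, the releasing hormone upstream of growth hormone and liver IGF1, rose (median 182 against 41.3, 1.44 on the log2 scale, adjusted p = 0.00527), and not past the test on the hybridization controls (0.69, adjusted p = 0.119). Its WB mean lay under that of the trp controls, so the size rests on the pseudocount, from 0.99 with 64 to 1.73 with 1. Grb10, an imprinted adaptor that restrains the insulin and IGF1 receptors, rose 2.64-fold (adjusted p = 2.5e-10). Its other 2 probe sets were lower, and the mean of the 3 was called lower (-0.39, adjusted p = 0.0399). Foxo3, a transcription factor that AKT holds out of the nucleus, rose 2.54-fold (adjusted p = 4.58e-09); its mean over probe sets was 0.02, and on the hybridization controls it did not pass (0.41, adjusted p = 0.123).

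Among the falls were Tsc2, the brake on mTOR (-2.39, median 34.7 against 273, adjusted p = 2.17e-05), and Igf2bp3, an RNA-binding protein named for its binding of Igf2 messages (5.11-fold, median 148 against 668, adjusted p = 1.09e-06). The IP mean of Tsc2 lay under that of the trp controls, and its difference ran from -3.02 with a pseudocount of 1 to -1.63 with 64. Of the 6 probe sets of Igf2bp3 3 were lower, with a mean of -0.75 over all 6 (adjusted p = 0.0152). Shc3, a neuronal adaptor of receptor tyrosine kinases, fell 3.63-fold (adjusted p = 5.76e-05). Stc1, a secreted glycoprotein related to the PAPP-A inhibitor stanniocalcin-2, fell to an IP mean under that of the trp controls (-1.31, adjusted p = 0.00406). It did not pass with quantile normalization (-0.83, adjusted p = 0.0739), its other probe set was higher and its mean was -0.18 (adjusted p = 0.586). Insr, the insulin receptor that can pair with the IGF1 receptor, did not pass on its brightest probe set (0.25, SE 0.15, adjusted p = 0.190), but its mean over 3 probe sets was lower (-0.84, adjusted p = 0.000273), and it was called lower on the hybridization controls (-0.68, adjusted p = 0.0293). Irs2, the adaptor beneath both receptors, was at -0.90 (SE 0.43, adjusted p = 0.0918) and passed with the replicate block (adjusted p = 0.0413) and without IP replicate 4, IP replicate 9 or WB replicate 1. Igfbp7, a distant relative of the binding proteins found in vessels, was at -0.33 (SE 0.22, adjusted p = 0.249).

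The other cell types were gauged by fixed marker lists on the brightest probe set of each gene. Among all genes read that way 21.7% were higher and 21.7% lower, 43.4% in either direction. With so few genes in a list, no shift of a cell type is read from the counts. Of 5 microglial markers 3 were lower (Aif1, C1qa and P2ry12) and 1 higher (Csf1r). In the IP, Aif1 and C1qa were at the level of the trp controls. The summed intensity was 3705 to 8320 in the IP and 2166 to 3784 in the WB samples. Csf1r alone had a median of 5147 in the IP and 1606 in the WB samples, beside 5862 and 2803 for the sum. Red blood cell genes were lower in 3 of 4 and summed to 298 to 1282 against 5089 to 16262. Astrocyte markers were higher in 3 of 5 and lower in 1 (31367 to 62325 against 16452 to 22551), oligodendrocyte markers higher in 2 of 4 and lower in 1 (27844 to 82468 against 17132 to 26365), and neuronal markers higher in 3 of 6 and lower in 2 (72184 to 122826 against 49121 to 61471). Single genes made up much of these sums. Their IP medians were 26618 for Gja1 (astrocyte sum 41372), 35090 for Mbp (oligodendrocyte sum 37877) and 52425 for Snap25 (neuronal sum 82904). Astrocytes and microglia are known sources of Igfbp2 and Igf1, and the part of any of these in the member values was not tested.

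By likeness of profile, the gene closest to Igf1r among 10465 candidates was Tgfa, a ligand of the EGF receptor, with Pearson's r of 0.91 over the 9 IP and 0.85 over the 9 WB arrays. For Igfbp5 it was Usp40, a ubiquitin protease (0.85 and 0.88). For Igf2 and Igfbp3 alike it was Mien1 (0.85 and 0.73, and 0.73 and 0.73). The others were Cfap300 for Igf1 (0.90 and 0.74), Rab40b for Igf2r (0.71 and 0.72), Svs5 for Igfbp2 (0.81 and 0.86), Dlx1 for Igfbp4 (0.77 and 0.92) and Hip1 for Igfbp6 (0.85 and 0.83). Each is the best of many candidates over few arrays that share their scaling, and is given as a description.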

How the data were processed

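Samples were hybridised to a mouse expression array and read as deposited intensities per probe set; per the submitters' processing notes the authors used MAS5, with no version named. Groups and replicate numbers came from the sample titles (9 IP, 9 WB arrays). Probe sets were named from GEO's platform annotation. Of 45101 probe sets, 64 array controls were left out of the tests. Values were analysed as log2(intensity + 16), a scale that understates folds of dim probe sets, with limma 3.58.1 in R 4.3.3 (lmFit, eBayes with intensity trend; 2 groups, no covariate) on all 45037 at once, with Benjamini-Hochberg adjustment and a threshold of 0.05. No detection calls were used, and the number of arrays limits the precision. Scripts were tested on simulated data. A gene was read on its brightest probe set, by the mean over 18 arrays. Ratios were tested by exact permutation of the arrays; pairs of different genes were left unadjusted. Named were every member, the 4 largest rises and 4 largest falls of the pathway list, Insr, Irs2, Igfbp7 and Hcrt, and for likeness the gene with the highest value of the lower of its correlations over the IP and over the WB arrays, of which the first of 2 is given. Candidates needed a WB mean log2 of at least 8. Alternatives were pseudocounts of 1 and 64, the scalings named above, a mean log2 of at least 8, no trend, array weights, gene means, a replicate block and leaving out arrays; rescaled same-gene ratios and gene ratios on another probe set were added after seeing the data. Members, lists and alternatives were chosen with earlier results of these data known. Gene neighbours came from a RefSeq table of GRCm38.p6, used for names and order alone.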

Additional observations from a re-analysis of the deposited data

Results flagged for a closer look

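Single arrays stood apart from the others of their group in 8 of 50 member groups and in 10 of 74 groups tested, by Dixon's criterion. Its nominal rate is about 1 of 20 groups. The rate over all probe sets of these arrays was not computed, so no excess in the members is read from this. All values are log2(intensity + 16). For Igf1 1452014_a_at, IP replicate 5 was low at 5.62 (the others 7.02 to 8.31) and WB replicate 4 high at 9.10 (8.27 to 8.53). For Igf1r 1428967_at, IP replicate 2 was high at 10.73 (8.63 to 9.64). In Igfbp4, WB replicate 1 was low on 1423757_x_at at 9.88 (10.21 to 10.45), WB replicate 3 on 1437406_x_at at 8.20 (9.15 to 9.80), IP replicate 7 on 1421991_a_at at 7.76 (8.69 to 9.52), WB replicate 6 on the same probe set at 7.49 (8.22 to 8.73), and WB replicate 9 on 1423756_s_at at 8.68 (9.09 to 9.48). Outside the members, Foxo3 was low in WB replicate 2 at 9.84 (10.34 to 10.73), and Hcrt in IP replicate 2 at 6.49 (7.98 to 8.98). No array stood apart for Igfbp5 1422313_a_at, whose IP spread of 2.77 was the largest among the members.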

How the results depend on the processing

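The scaling of the arrays moves most values by a common amount, dim probe sets have uncertain folds, and without probe sequences the probe sets of a gene cannot be placed along its transcript. Both pseudocounts, no trend and the replicate block changed none of the 25 member calls; array weights added Igf1r 1426565_at (-0.86) and Igfbp4 1437406_x_at (-0.74) to the lower calls. Whether IP and WB arrays of the same replicate number share a brain is not given in the labels. Correlations of same-numbered deviations ran from -0.0526 to 0.0788, and 2 of 9 IP arrays correlated best with their own number. Low correlations do not exclude such a pairing. With the replicate block 15 member probe sets and 20020 of all passed, as did 20 genes of the pathway list.

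A mean log2 of at least 8 left 15 member probe sets, of which 8 passed, against 15 of 25, and 3 of 5 member genes against 6 of 9; of all probe sets 12108 of 19539 passed, against 20257. With median centring 3 member genes passed: Igf1r and Igfbp5 lower and Igf2r higher. Without 1 array, 19128 to 20357 of all probe sets passed, 14 to 17 of the members, 6 to 7 member genes, 19 to 21 pathway genes, 20 to 24 ratios of the 36 gene pairs (22 with all arrays, unadjusted; their share over all gene pairs was not computed) and 16 to 20 same-gene ratios. Of 450 such member comparisons 432 kept call and sign, and the 10 lost calls were all of Igf1r 1446303_at.

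Signs turned as follows; the cause was not tested. On the hybridization controls the differences became -0.10 (Igf1 1437401_at), -0.15 (Igf1 1434413_at), -0.55 (Igf2r 1424111_at), -0.43 (Igfbp4 1421991_a_at), -0.61 (Igfbp5 1452114_s_at), -0.56 (Igfbp6), -0.68 (Insr) and -0.64 (Hcrt). With quantile normalization they became 0.12 (Igf1 1419519_at), 0.11 (Igf2 1415931_at) and 0.04 (Igfbp4 1421992_a_at). With median centring they became 0.10 (Igf1 1419519_at), 0.34 (Igf2 1415931_at), 0.19 (Igfbp4 1421992_a_at) and 0.10 (Igfbp7). On the other probe set of Igf2r, Igf1r to Igf2r was 0.66 and Igf2r to Igfbp3 -0.72, and on that of Igfbp5, Igfbp2 to Igfbp5 was -1.38. Averaged over probe sets, Grb10 was -0.39, Insr -0.84 and Igfbp7 0.13. Without 1 array, Igf2 1415931_at ran from -0.21 to 0.09 (turned without IP replicate 3) and Igfbp6 from -0.01 (turned without IP replicate 7) to 0.37.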

Other observations

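A further probe set, 1440979_at, is annotated to both Igf2r and Airn, the noncoding RNA that overlaps Igf2r and takes part in its imprinting, and was not counted among the members. It read 165, 303 and 535 (lowest, median, highest) in the IP and 199, 270 and 354 in the WB samples. The groups overlapped, and the difference did not pass (0.05, SE 0.21, limma adjusted p = 0.867).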
